A study of Mus musculus with 5 samples.

Results

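Small nucleolar RNA (snoRNA) genes were examined in RNA sequencing of brain microvascular fragments from male C57BL6 mice aged between 26 and 38 weeks. The genes were chosen by symbol, which starts with Snora, SNORA, Snord or SNORD, and were selected on the measured level, a mean of at least 1 over the 5 mice in FPKM, the fragments of a gene scaled by the size of the library and by a length that, in these values, shrinks faster than the exon length in short genes. Levels and detection are therefore described without a test. This gave 96 genes of 1378 with such a symbol and of 37982 genes in all. The 3 WT mice were littermate controls, the 2 Ins2-AKITA mice were heterozygous for the AKITA allele of Ins2, the insulin 2 gene, and 1 library was made per mouse. Ins2-AKITA mice become hyperglycemic because the mutant insulin harms the cells that produce it, so that the allele acts from the pancreas and not from the vessels. The fragments were caught with beads against PECAM1 and hold endothelial cells with the pericytes and astrocyte end-feet that stay attached. The comparison asks whether these small RNAs differ in the brain vessels of hyperglycemic mice.

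SnoRNAs guide enzymes to chosen bases of other RNAs, above all of ribosomal RNA in the nucleolus. Those of the H/ACA class fold into hairpins, end a few bases after an ACA box, bind the pseudouridine synthase dyskerin and direct the change of uridine to pseudouridine. Those of the C/D class carry a box C near the start and a box D near the end, bind the methyltransferase fibrillarin and direct methylation of the ribose. A few, such as U17 (Snora73) and U22 (Snord22), are needed for the cutting of the ribosomal RNA precursor. Most mammalian snoRNAs are cut out of the introns of other genes, many of which encode ribosomal proteins or carry no protein code at all.

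The sequences below show the genes on which the results turn, read 5′ to 3′ from the NCBIM37 genome on the strand of the gene. In the H/ACA genes the capitals mark the last ACA within 10 bases of the 3′ end. The first set holds the 4 genes that passed the test between genotypes: SNORA71 (chr2:158185534-158185665, minus strand, in an exon of the non-coding gene 9430008C03Rik), Snora47 (chr13:96100555-96100692, plus strand, intron of Zbed3), SNORA13 (chr7:117166724-117166856, plus strand, intron of Ipo7) and SNORA48 (chr8:34802273-34802416, plus strand, intron of Gsr).
SNORA71 in 9430008C03Rik: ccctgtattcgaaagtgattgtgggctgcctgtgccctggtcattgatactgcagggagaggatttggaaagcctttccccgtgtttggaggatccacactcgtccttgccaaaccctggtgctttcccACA
Snora47 in Zbed3: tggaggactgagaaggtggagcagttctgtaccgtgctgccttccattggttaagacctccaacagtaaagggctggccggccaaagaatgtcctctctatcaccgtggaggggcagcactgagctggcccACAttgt
SNORA13 in Ipo7: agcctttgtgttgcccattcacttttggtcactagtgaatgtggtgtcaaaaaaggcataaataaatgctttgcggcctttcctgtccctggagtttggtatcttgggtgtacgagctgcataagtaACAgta
SNORA48 in Gsr: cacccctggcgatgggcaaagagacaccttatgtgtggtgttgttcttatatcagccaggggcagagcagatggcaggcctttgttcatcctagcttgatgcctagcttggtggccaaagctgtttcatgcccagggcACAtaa

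The second set holds 4 of the genes with the most fragments: Snord17 (chr2:144091715-144091952, minus strand, intron of Snx5), Snord15b (chr7:106628073-106628217, minus strand, overlapping an exon of Rps3), SNORA73 (chr9:120038469-120038671, plus strand, intron of Rpsa) and SNORA79 (chr12:92811870-92812012, minus strand, intron of Gtf2a1). In the C/D genes the capitals mark the letters TGATGA of box C within the first 20 bases and CTGA of box D within the last 20.
Snord17 in Snx5: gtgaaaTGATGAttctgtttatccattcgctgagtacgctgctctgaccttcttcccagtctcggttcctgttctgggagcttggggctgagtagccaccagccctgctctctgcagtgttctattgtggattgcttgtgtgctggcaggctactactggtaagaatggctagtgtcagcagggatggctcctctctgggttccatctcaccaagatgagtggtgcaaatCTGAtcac
Snord15b in Rps3: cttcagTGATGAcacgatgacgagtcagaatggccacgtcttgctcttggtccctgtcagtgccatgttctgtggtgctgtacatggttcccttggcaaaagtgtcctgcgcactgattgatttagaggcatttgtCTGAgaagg
SNORA73 in Rpsa: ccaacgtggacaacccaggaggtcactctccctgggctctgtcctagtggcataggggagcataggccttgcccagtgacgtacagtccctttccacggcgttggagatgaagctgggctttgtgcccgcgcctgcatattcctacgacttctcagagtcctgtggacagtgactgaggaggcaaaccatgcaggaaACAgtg
SNORA79 in Gtf2a1: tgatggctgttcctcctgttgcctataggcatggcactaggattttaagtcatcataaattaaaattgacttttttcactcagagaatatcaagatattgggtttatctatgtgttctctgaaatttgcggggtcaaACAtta

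The third set shows short C/D genes of the imprinted cluster on chromosome 7, which were at 0 in all mice. SNORD115 lies at chr7:66599443-66599521 and SNORD116 at chr7:66928831-66928924, both on the minus strand, and the SNORD115 copy has no TGATGA in its first 20 bases.
SNORD115: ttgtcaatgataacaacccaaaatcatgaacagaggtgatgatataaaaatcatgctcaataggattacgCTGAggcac
SNORD116: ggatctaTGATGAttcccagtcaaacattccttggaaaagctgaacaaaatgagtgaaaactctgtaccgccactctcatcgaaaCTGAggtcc

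The fourth set shows the 2 SNORA26 genes, which had the highest FPKM of all and differ by 3 edits over 122 bases, an identity of 97.5%. They lie at chr12:60235059-60235180 in an intron of Ctage5 and at chr1:87983876-87983997 in an intron of Psmd1, both on the plus strand.
SNORA26 in Ctage5: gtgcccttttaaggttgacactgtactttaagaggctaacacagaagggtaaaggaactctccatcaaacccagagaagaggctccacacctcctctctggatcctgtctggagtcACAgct
SNORA26 in Psmd1: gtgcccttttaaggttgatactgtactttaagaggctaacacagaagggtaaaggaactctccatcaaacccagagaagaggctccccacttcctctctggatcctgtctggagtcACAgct

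Before the comparison, the libraries were checked against cell type markers. All markers of endothelial cells (8), pericytes (5), astrocytes (5), neurons (6), oligodendrocytes (4), microglia (4) and erythroid cells (3) were above 0 in every mouse, so the fragments also held RNA of brain cells outside the vessel wall. The summed FPKM of the endothelial markers was between 442 and 776 in WT, against between 379 and 462 in the Ins2-AKITA pair, and that of the astrocyte markers between 1381 and 2009 in WT, against between 2434 and 2778 in the Ins2-AKITA pair. Slc1a2 made up most of the astrocyte sum, with 1013 to 1507 FPKM in WT, against 1897 and 2110 in the Ins2-AKITA pair. Slc1a3 and Aldh1l1 were also higher in both Ins2-AKITA mice, while Aqp4 and Gfap overlapped. The erythroid markers summed to between 26.5 and 51.8 in WT, against between 19.8 and 27.5 in the Ins2-AKITA pair. The sums of the pericyte, neuron, oligodendrocyte and microglia markers overlapped between the groups, as did the endothelial and erythroid ones. The part of these differences in the snoRNA values was not tested. In such bulk samples fewer cells of a type and less RNA per cell cannot be told apart. The number of fragments per library is not listed in the files, and was estimated from the steps between low FPKM values as between 1126360.0 and 2843492, with WT replicate 3 the deepest.

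H/ACA genes made up nearly all detected snoRNA genes. Of 1031 H/ACA genes, 90 (8.73%) were above 0 in at least 1 mouse, against 6 (1.73%) of 347 C/D genes. The 6 C/D genes were Snord17, Snord15a, Snord15b, Snord22, SNORD94 and Snord123. The remaining 1282 genes were at 0 in all mice, and none had a mean between 0 and 1, so the minimum of 1 separated detected from undetected genes. Just inside it lay SNORA73 in Ero1lb, with 9.58 FPKM in WT replicate 3 alone, Snord123 with a mean of 3.86 and SNORA53 with a mean of 6.47.

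Detection went with length in both classes. H/ACA genes had a median exon length of 130 nt and C/D genes of 79 nt. No gene of any kind shorter than 109 nt was above 0 in any mouse, which covered 3099 genes, 334 of them C/D and 78 H/ACA. The shortest detected snoRNA gene had 122 nt. Of the H/ACA genes, 2.90% were detected at 120 to 129 nt, 10.6% at 130 to 139 nt, 27.9% at 140 to 149 nt, 8 of 20 at 150 to 199 nt and 55.6% at 200 to 249 nt. Of the 8 C/D genes of at least 122 nt, 6 were detected, against 10.8% of the 833 H/ACA genes of that length. The 6 include Snord123, which is annotated as a lincRNA of 1482 nt. Over all lengths the detected share was lower in the C/D class, and among genes of at least 122 nt it was higher, over 8 genes.

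**Figure D1:**
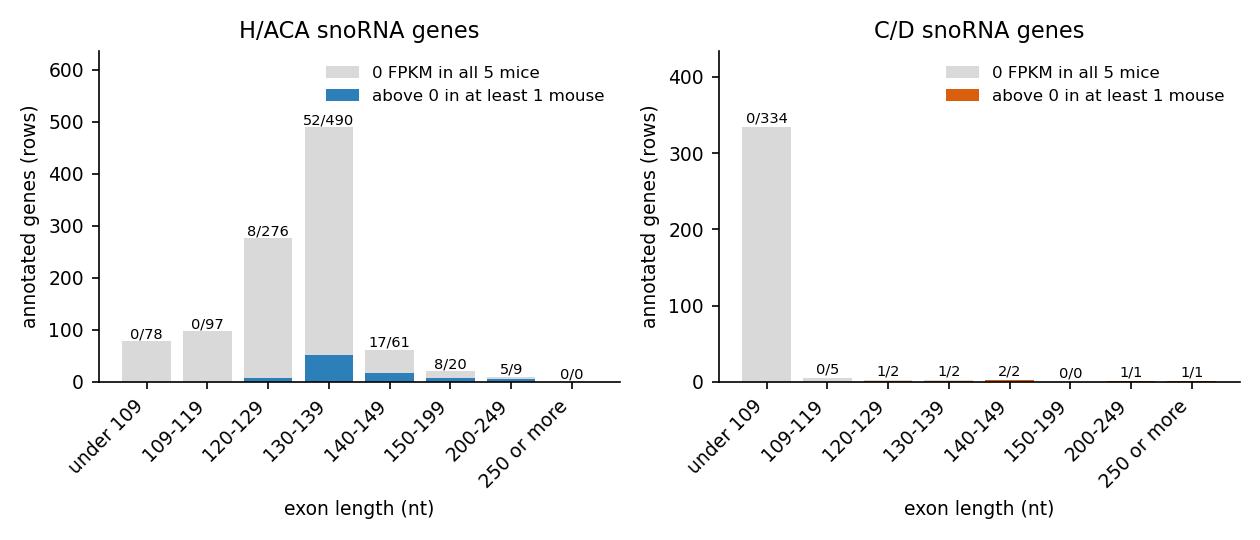
Number of annotated H/ACA (left) and C/D (right) snoRNA genes by exon length in nt. Grey bars are genes at 0 FPKM in all 5 mice and coloured bars genes above 0 in at least 1 mouse, with detected and total numbers above each bar. No gene under 109 nt was detected, a range that holds 334 of the 347 C/D genes.

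The best known C/D families were among the short ones. All 188 genes of the imprinted clusters (Snord64, Snord107, Snord113, Snord114, Snord115 and Snord116), which are made from long neuronal transcripts of the paternal or maternal chromosome, had 67 to 94 nt and were at 0 in every mouse. No gene of this length had a value in these files, so 0 here does not say that they were not expressed. Of 23 genes with a symbol of the families that take part in cutting the ribosomal RNA precursor, 7 were above 0. These were Snord22 and 6 genes of the Snora73 family. Whether each copy has this role was not tested. Snord118 (U8), with 135 nt, and the second SNORD22 gene, with 125 nt, were at 0 although their length allowed a value.

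The ACA box was more frequent in the detected than in the undetected H/ACA genes. An ACA within the last 10 bases was present in 87.8% of the 90 detected H/ACA genes, in 62.2% of the 941 undetected ones and in 63.3% of the 743 undetected ones of at least 122 nt. An ACA exactly 3 bases before the end, where the class has it, was present in 62.2%, 20.3% and 20.2% of the same sets. The letters ANANNA of box H were present in 97.8% of the detected and 92.6% of the undetected H/ACA genes, but also in 86.5% of the undetected C/D genes, so that they did not mark the class. Of the 5 short C/D genes detected, 4 had both TGATGA and CTGA at the searched places, against 71.0% of the 341 undetected C/D genes. All motifs were searched on the strand of the gene. Snord123 was left out of these counts because its gene model is a spliced transcript of 1482 nt and not a snoRNA of usual length.

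The place in the genome also differed. Of the 96 detected genes, 82 (85.4%) lay inside another annotated gene on the same strand, 60 in an intron and 22 overlapping an exon, against 286 (22.3%) of the 1282 undetected genes. At 130 to 149 nt this held for 58 of 69 detected and 77 of 482 undetected H/ACA genes. The 68 genes that contain them included ribosomal protein genes, which held 15, and Snhg genes (small nucleolar RNA host genes), which held 10. The 40 genes with at least 5 fragments over all mice lay within a gene on their own strand in 38 cases, and the 27 with about 1 fragment in 63.0%. Of the 27, 7 lay opposite to a gene on the other strand only. For the 22 that overlap an exon, fragments of the host transcript and of the snoRNA could not be told apart.

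Copies were frequent. Of the 95 detected genes with a compact sequence, 20 had another snoRNA gene of at least 95% identity, among them Snora73a and Snora73b (96.6%), SNORA55 in Kif13a and SNORA55 in Pabpc4 (97.7%), Snora5c and SNORA5 in Eif2ak3 (98.5%), and Snora30 and an undetected copy on chromosome 14 (98.5%). For these the split of fragments between copies was uncertain. The SNORA48 gene in Gsr was 98.6% identical to an undetected copy on chromosome 17.

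The FPKM of these genes followed their length. From the low values of genes with 1 transcript, the FPKM that a single fragment gives was worked out for every length from 130 nt up. It was between 2817 and 4219 FPKM at 130 nt, between 261 and 440 at 144 nt, between 17.0 and 37.1 at 200 nt and between 6.71 and 15.9 at 250 nt, lowest each time in WT replicate 3. Over the 96 genes the mean FPKM fell with exon length (Spearman rho -0.70), a description over genes that share 5 libraries. Over the 87 genes of at least 130 nt the number of fragments did not fall with length (rho 0.24).

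**Figure D2:**
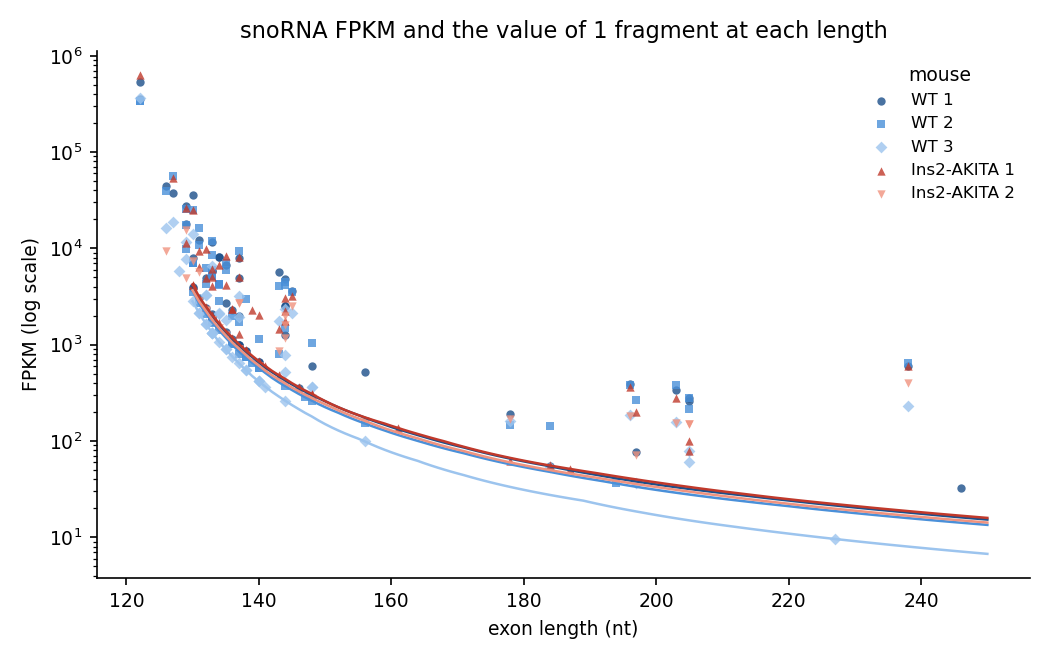
FPKM (log scale) of the detected snoRNA genes up to 250 nt in each mouse (points) against exon length in nt, with the FPKM of 1 fragment from 130 nt up for each mouse (lines). Many points lie on the lines, which means 1 fragment, and the lines fall from between 2817 and 4219 FPKM at 130 nt to between 6.71 and 15.9 at 250 nt.

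Few fragments lay behind most genes. The 87 genes had a median of 3.01 fragments summed over all 5 mice, 27 of them had about 1, 45 had fewer than 3.5 and 14 had at least 20. Per mouse, snoRNA genes of at least 130 nt held 216, 268 and 169 fragments in WT replicates 1 to 3, against 171 and 105 in the Ins2-AKITA pair. Scaled to the library this was 185, 203 and 59.4 per-million in WT, against 152 and 81.8 per-million in the Ins2-AKITA pair. WT replicate 3 was the lowest and the groups overlapped. Values per-million take out the depth of a library but not its length scale, which differed between mice. The C/D genes, 5 with a fragment number, gave 49.4, 61.5 and 57.9 of the snoRNA fragments in WT, against 46.0 and 38.0 in the Ins2-AKITA pair. Most came from Snord17. Snord123, annotated as a lincRNA, gave 5.0, 5.99 and 17.98 of them in WT, against 5.0 and 5.99 in the Ins2-AKITA pair. Of the values of 10 fragments or fewer, between 79.2% and 97.1% per mouse were within 0.05 of a whole number.

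Detection also differed between mice. Above 0 were 56, 66 and 54 snoRNA genes in the WT mice, against 52 and 39 in the Ins2-AKITA pair, so that both Ins2-AKITA mice were below all WT mice. Genes of the mixed annotation class misc_RNA had the same order, with 63, 63 and 47 in WT, against 42 and 36. The groups overlapped in genes for spliceosomal RNAs (8, 11 and 5, against 9 and 8). They also overlapped in genes for miRNAs (4, 6 and 8, against 10 and 3). Among the 87 genes of at least 130 nt, 3 fragments or more (with a tolerance of 0.05) were reached by 23, 30 and 15 in WT, against 22 and 12 in the Ins2-AKITA pair, and the groups overlapped. Of the 96 genes, 24 were above 0 in all mice (21 H/ACA and 3 C/D) and 34 in 1 mouse only, all of the H/ACA class. With both Ins2-AKITA mice at 0, 25 genes were above 0 in 1 WT mouse, 5 in 2 and 3 in all 3. With all WT mice at 0, 9 were above 0 in 1 Ins2-AKITA mouse and 1 in both. These numbers come from groups of unequal size and from single fragments, and no test was made on them.

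The snoRNA genes took 9.20%, 8.51% and 13.9% of all FPKM in the WT mice, against 21.8% and 5.44% in the Ins2-AKITA pair. These are shares of FPKM and not of RNA, since in the shortest genes few fragments give a very high FPKM. The snoRNA genes of at least 130 nt held only 59.4 to 203 fragments per-million in a mouse. The highest gene was a SNORA26 copy in 4 mice. The copy in Psmd1 made up 44.6% of the snoRNA FPKM in WT replicate 1, and the copy in Ctage5 made up 32.8%, 73.4% and 72.7% in WT replicates 2 and 3 and Ins2-AKITA replicate 1. In WT replicates 1 and 2 both copies were above 0. In Ins2-AKITA replicate 2, where both SNORA26 genes were at 0, the highest gene took 18.6%.

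SNORA26 in Ctage5 had 356465, 341143 and 361265 FPKM in WT, against 636369 and 0 in the Ins2-AKITA pair. Its near copy in Psmd1 had 534689 and 341136 FPKM in WT replicates 1 and 2 and was at 0 in the other mice. Both groups of each gene overlapped, and at 122 nt no fragment number can be given. SNORA54 in Nap1l4 (127 nt) followed with 37528, 56234 and 18715 FPKM in WT, against 53474 and 0 in the Ins2-AKITA pair, again overlapping.

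Other short H/ACA genes at the top of the FPKM scale overlapped as well. SNORA63 in Eif4a2 (129 nt) was above 0 in all mice, with 17915, 25652 and 11674 FPKM in WT, against 26346 and 4951 in the Ins2-AKITA pair. SNORA35 in Lrch2 (129 nt) had 27393, 9763 and 7823 FPKM in WT, against 11429 and 0 in the Ins2-AKITA pair. SNORA77 in Ranbp1 (126 nt) was above 0 in WT replicate 1 alone, with 44830.3 FPKM. None of the 3 separated the genotypes. Snora30 in Srcap (130 nt), the highest of those with a fragment number, had 36139.7, 24919 and 14085 FPKM in WT, against 24930.1 and 7332 in the Ins2-AKITA pair, a difference of -0.79 with a standard error of 0.78 (limma, adjusted p = 0.90). Snora68 (131 nt) had 12301, 16259.6 and 0 FPKM in WT, against 9499 and 2807 in the Ins2-AKITA pair, from at most 6.09 fragments. Both had overlapping groups.

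Longer or better covered H/ACA genes overlapped too. Snora21 in Rpl23 (137 nt) had 7875, 9468 and 3199 FPKM in WT, against 8115 and 2729 in the Ins2-AKITA pair. Snora74a in Snhg4 (196 nt) had 395, 379 and 188 FPKM in WT, against 367 and 183 in the Ins2-AKITA pair. In both, WT replicate 3 and Ins2-AKITA replicate 2 were the low mice, and the adjusted p was 0.94 and 0.95 (limma).

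The deepest measured snoRNA gene was Snord17, a C/D gene of 238 nt. It had 596, 647 and 232 FPKM in WT, against 598 and 401 in the Ins2-AKITA pair, from 33.0, 41.0, 29.0, 32.0 and 24.0 fragments. WT replicate 3 was lowest and the groups overlapped. Its mean was 492 ± 227 (SD, n = 3) in WT and 499 ± 139 (SD, n = 2) in Ins2-AKITA mice, a difference on the log2(FPKM + 1) scale of 0.13 with a standard error of 0.49 (limma, adjusted p = 0.97). On the scale of fragments per-million it had 28.3, 31.1 and 10.2 in WT, against 28.4 and 18.7 in the Ins2-AKITA pair.

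Snord15b and Snord15a, which guide methylation of the large ribosomal RNA, both lie in Rps3. Snord15b had 3642, 3535 and 2109 FPKM in WT, against 3177 and 2524 in the Ins2-AKITA pair. The groups overlapped, and its difference was -0.09 with a standard error of 0.37 (limma, adjusted p = 0.98). Snord15a was above 0 in 3 mice, with 1049 and 359 FPKM in WT replicates 2 and 3 and 308 in Ins2-AKITA replicate 1. The host Rps3 had 63.1, 50.4 and 60.6 FPKM in WT, against 45.4 and 66.7 in the Ins2-AKITA pair, also overlapping.

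Of the other C/D genes, Snord22 and SNORD94 were at 0 in some mice, and Snord123 was above 0 in every mouse. Snord22 (126 nt), which lies in Snhg1 and is needed to make the small ribosomal RNA, had 39641 and 16126 FPKM in WT replicates 2 and 3 and 9429 in Ins2-AKITA replicate 2, and was at 0 in the other mice. SNORD94 in Ptcd3 had 2 fragments in WT replicate 1 and 1 in Ins2-AKITA replicate 2. Snord123, on chromosome 15 with no annotated host, had 3.41, 3.61 and 5.03 FPKM in WT, against 3.53 and 3.72 in the Ins2-AKITA pair, the smallest spread of the genes with at least 20 fragments. None of the 6 C/D genes passed the test, which 0.0364% of all genes tested passed as lower and 0.00606% as higher. None differed without overlap, where 10.2% of all genes tested had both Ins2-AKITA mice below all WT mice and 9.18% had both above. With so few genes, no trait of the class was read from this. The smallest adjusted p among the 6 was 0.94 (limma).

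U17 snoRNAs, of the Snora73 family, take part in cutting the ribosomal RNA precursor and not in pseudouridylation. SNORA73 in Rpsa had 336, 381 and 157 FPKM in WT, against 278 and 155 in the Ins2-AKITA pair. Snora73a had 279, 212 and 79.1 FPKM in WT, against 77.9 and 149 in the Ins2-AKITA pair, and Snora73b had 257, 281 and 59.9 in WT, against 99.7 and 149 in the Ins2-AKITA pair. In all 3 genes the groups overlapped, WT replicate 3 was well below the other WT mice, and the adjusted p was at least 0.90 (limma). The remaining 3 genes of the family had 1 fragment each. Snora73a and Snora73b each lie within 2 annotated genes on the same strand, and values are given only for the one of shorter span, Snhg3. Snhg3 had 10.4, 7.28 and 7.63 FPKM in WT, against 11.6 and 0 in the Ins2-AKITA pair. It was thus at 0 in a mouse in which both snoRNAs had 5 fragments.

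**Figure D3:**
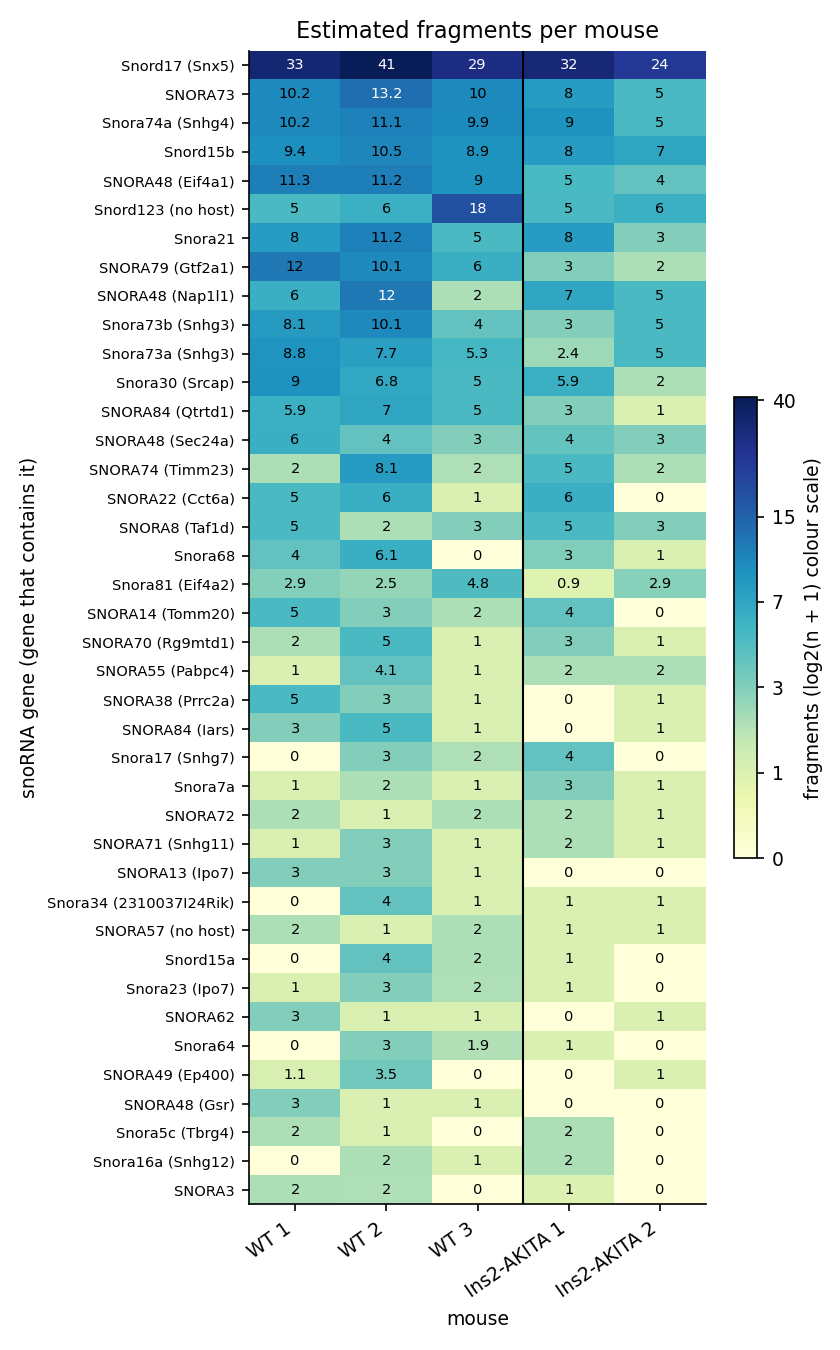
Estimated fragments in each mouse for the 40 snoRNA genes of at least 130 nt with at least 5 fragments over all mice, ordered by their sum, with the containing gene in brackets unless it encodes a ribosomal protein, and a line between WT and Ins2-AKITA mice. Snord17 leads with 24.0 to 41.0 fragments per mouse, and the counts fall quickly below it.

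In all, 4 H/ACA genes had an adjusted p under 0.05 between WT and Ins2-AKITA mice. In the limma test of 16498 genes, 3 snoRNA genes were lower in Ins2-AKITA mice (SNORA13, Snora47 and SNORA48 in Gsr), where 0.0364% of all genes tested were lower. One was higher (SNORA71 in 9430008C03Rik), where 0.00606% of all genes tested were higher. All 4 were at 0 in every mouse of one group and at no more than 3 fragments in any mouse of the other. They thus passed the minimum level through 1 group alone and had to differ, so that their number is given as a description. On fragments per-million none of the 4 was called.

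Snora47 had 851, 745 and 548 FPKM in the WT mice and 0 in both Ins2-AKITA mice. These WT values are 1.00, 1.01 and 1.00 fragments. The groups did not overlap, and the adjusted p was 9.6e-05 (limma). In the Ins2-AKITA mice 3 fragments would have given 2629 and 2363 FPKM, which is above the WT values, so that a loss was not detectable at this depth. The fitted difference was -9.46 with a pseudocount of 1 and -12.78 with 0.1, and it therefore gives no fold change. Zbed3, its host, had 8.21, 6.81 and 6.73 FPKM in WT, against 9.04 and 3.73 in the Ins2-AKITA pair, which overlapped.

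SNORA13 had 5868, 5147 and 1319.9 FPKM in WT, or 2.96, 3.01 and 1.00 fragments, and 0 in both Ins2-AKITA mice. No mouse of the groups overlapped, and the adjusted p was 0.0063 (limma). A count of 0 there allows up to 6046 and 5388 FPKM, beside a highest WT value of 5868. The call was lost when either Ins2-AKITA mouse was left out, with adjusted p = 0.20 each time (limma). Ipo7, the host, had 21.0, 23.6 and 31.6 FPKM in WT, against 27.9 and 40.9 in the Ins2-AKITA pair. Another H/ACA gene of the same host, Snora23, had 53.9 to 143 FPKM in WT and 1 fragment in Ins2-AKITA replicate 1.

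SNORA48 in Gsr had 1273, 371 and 261 FPKM in WT, or 3.00, 1.00 and 1.00 fragments, and 0 in both Ins2-AKITA mice (limma, adjusted p = 0.025). The limit at a count of 0 was 1319 and 1184 FPKM. Leaving out WT replicate 2 raised the adjusted p to 0.089, and leaving out Ins2-AKITA replicates 1 and 2 raised it to 0.44 and 0.35 (limma). A block for replicate number gave 0.47 (limma). Gsr, which encodes glutathione reductase, had 25.5, 19.0 and 19.1 FPKM in WT, against 24.8 and 27.8 in the Ins2-AKITA pair.

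SNORA71 in 9430008C03Rik was at 0 in all WT mice and had 2463 and 2213 FPKM in the Ins2-AKITA mice, or 0.99 fragments in each (limma, adjusted p = 1.7e-05). In WT mice 3 fragments would have given 7348, 6317 and 4941 FPKM. The gene 9430008C03Rik, whose exon it overlaps, had 9.77, 6.13 and 3.13 FPKM in WT, against 6.22 and 2.00 in the Ins2-AKITA pair, which overlapped. A second SNORA71 gene of 133 nt in Snhg11, also on chromosome 2, was above 0 in all mice, with 1956, 5147 and 1319.9 FPKM in WT, against 4030.4 and 1796 in the Ins2-AKITA pair, and did not separate the groups. When genes that share a symbol were summed, SNORA71 and SNORA48 were no longer called, and SNORA13 and Snora47 remained.

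For all 4 genes the test answered whether 0 and 1 to 3 fragments alternate by genotype, since at 132 to 144 nt a single fragment gave 261 FPKM or more. On log2(fragments per-million + 1) the differences were 0.87 for SNORA71, -0.72 for Snora47, -1.32 for SNORA13 and -1.03 for SNORA48, with an adjusted p of 0.90 each (limma). Over 5 mice an exact permutation test cannot give less than 0.1, and gave 0.1 for each of them.

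**Figure D4:**
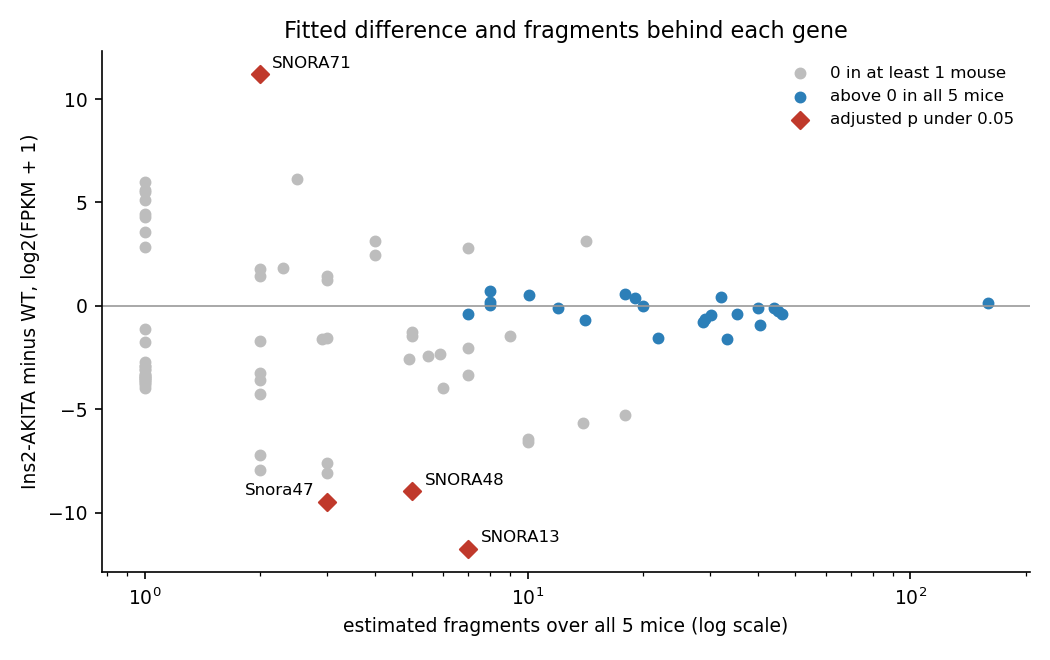
Fitted difference between Ins2-AKITA and WT mice on the log2(FPKM + 1) scale against the estimated fragments over all 5 mice (log scale) for the 87 snoRNA genes of at least 130 nt. The 4 genes past an adjusted p of 0.05 (red diamonds) have 2 to 7 fragments, and the genes above 0 in all mice (blue) lie between -1.61 and 0.71.

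Among the genes with a value in every mouse, 3 H/ACA genes had both Ins2-AKITA mice below all WT mice. Together with the 3 genes called lower these make 6 of 96, where 10.2% of all genes tested had this order, and 1 gene had the opposite order, where 9.18% did. SNORA79 in Gtf2a1 had 5622, 4096 and 1740 FPKM in WT (3819 ± 1956, SD, n = 3), against 1445 and 869 in the Ins2-AKITA pair (1157 ± 407, SD, n = 2). Its mean was 3.30-fold higher in WT, a difference of -1.61 with a standard error of 0.56 (limma, adjusted p = 0.90). In fragments per-million it had 10.3, 7.64 and 2.11 in WT, against 2.66 and 1.56 in the Ins2-AKITA pair. There WT replicate 3 lay between the Ins2-AKITA mice, but values per-million are not adjusted for length, and the length scale differed between mice.

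SNORA84 in Qtrtd1 had 11737, 12009 and 6599 FPKM in WT, against 6046 and 1796 in the Ins2-AKITA pair. The nearest mice of the groups differed by less than 1 fragment's worth of FPKM, and the difference was -1.57 with a standard error of 0.63 (limma, adjusted p = 0.90). SNORA48 in Eif4a1 had 4779, 4164 and 2337 FPKM in WT, against 2223 and 1589 in the Ins2-AKITA pair, a difference of -0.94 with a standard error of 0.42 (limma, adjusted p = 0.90). The hosts Gtf2a1, Qtrtd1 and Eif4a1 had adjusted p of 0.90, 0.95 and 0.90 (limma), with WT means of 12.5, 10.6 and 72.5 FPKM beside Ins2-AKITA means of 15.3, 11.4 and 64.5 FPKM. Without adjustment, p was under 0.05 for 5 lower and 1 higher snoRNA genes, where 2.84% and 1.49% of all genes tested passed.

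The 4 H/ACA genes with the largest positive differences among those above 0 in all mice had overlapping groups. Snora7a in Rpl32 had 654, 1144 and 414 FPKM in WT, against 2019 and 606 in the Ins2-AKITA pair, a difference of 0.71 with a standard error of 0.63. SNORA8 in Taf1d had 4922, 1722 and 1919 FPKM in WT, against 5072 and 2729 in the Ins2-AKITA pair, a difference of 0.55 with a standard error of 0.57. SNORA55 in Pabpc4 had 3075, 10839.7 and 2123 FPKM in WT, against 6333 and 5615 in the Ins2-AKITA pair. SNORA48 in Nap1l1 had 2547, 4452 and 522 FPKM in WT, against 3055 and 1969.7 in the Ins2-AKITA pair. The adjusted p of these genes was between 0.90 and 0.95 (limma).

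The best covered genes can also be compared in fragments per-million, which take out depth but not the length scale of each mouse. That scale differed. At 250 nt 1 fragment gave 6.71 FPKM in WT replicate 3, against 13.4 to 15.9 in the other mice. At 130 nt the gap was relatively narrower, with 2817 against 3640 to 4219. The part of this in the low values of WT replicate 3 was not tested. Over the 14 genes with at least 20 fragments, the groups overlapped in all 14 on this scale. On the FPKM scale SNORA79, SNORA84 in Qtrtd1 and SNORA48 in Eif4a1, all among the 14, did not overlap. Per-million, the lowest mouse was WT replicate 3 in 9 of the 14 and Ins2-AKITA replicate 2 in 4. The highest was WT replicate 1 in 7 and WT replicate 2 in 6. In 12 of the 14 the Ins2-AKITA mean was the lower one. The same counts over all genes were not made per-million. On the FPKM scale, 7552 of the 14442 genes above 0 in all mice had a negative difference. There 1511 had both Ins2-AKITA mice below all WT mice and 1386 had both above. The 14 genes share 5 libraries, so their counts are a description. The highest mouse exceeded the lowest by between 1.48-fold for Snord123 and 12.98-fold for SNORA48 in Nap1l1.

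**Figure D5:**
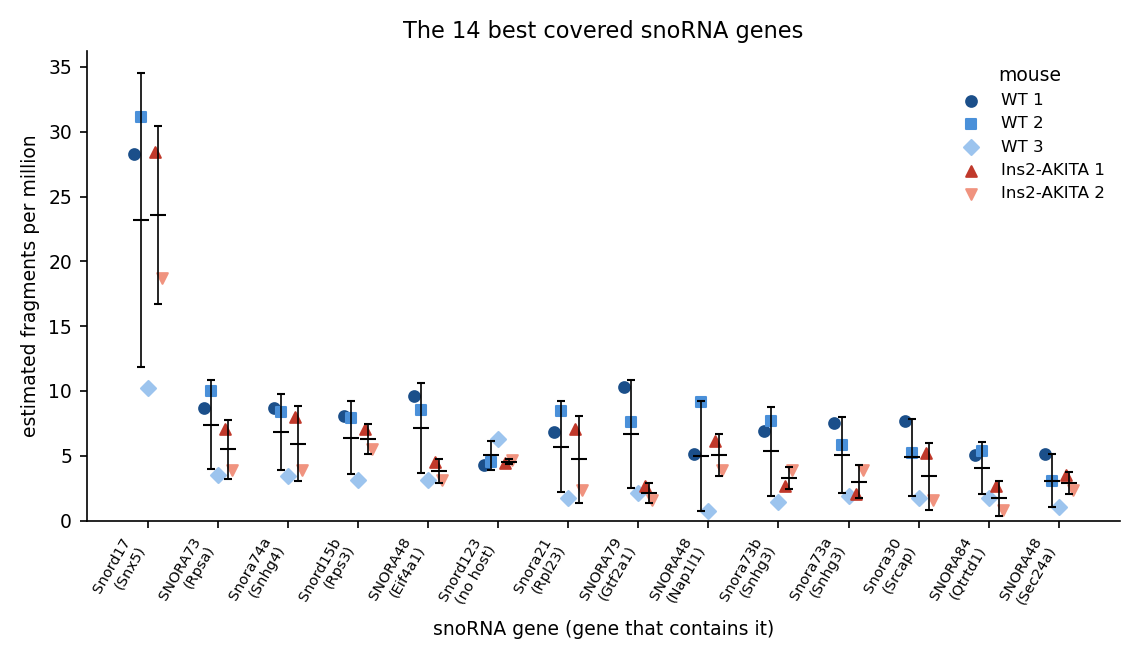
Estimated fragments per-million in each mouse for the 14 snoRNA genes with at least 20 fragments over all mice, with the containing gene in brackets. The values are not adjusted for length. Black lines give the mean and SD of the 3 WT and the 2 Ins2-AKITA mice; WT replicate 3 (light diamonds) is the lowest mouse in 9 of the 14 and the groups overlap in all of them.

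As a whole the H/ACA genes had a median difference of -1.61 and the C/D genes of -0.10 on the log2(FPKM + 1) scale, beside -0.04 over all genes tested. These medians rest on genes at 0 in some mice, which lie far from 0 difference in either direction. Over the 21 H/ACA genes above 0 in all mice the median was -0.39, with 13 lower and 8 higher, over the 3 C/D genes -0.09, and over all 14442 genes above 0 in all mice -0.02. On the scale of fragments per-million the H/ACA median was -0.19. No direction for a class was therefore read from them.

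Of 26 listed genes for snoRNP proteins, 25 were tested and 0 passed the adjusted threshold in limma, 4 were at an unadjusted p under 0.05 (2 lower and 2 higher, where 2.84% and 1.49% of all genes tested were), 14 were lower and 11 higher, and the median difference was -0.10. Of all 16498 genes tested, 8849 were lower and 7649 higher. Both Ins2-AKITA mice lay below all WT mice in 2 of the 25 and above them in 3, where 10.2% and 9.18% of all genes tested did. Imp3, a protein of the U3 particle, had 3.82, 6.75 and 6.798 FPKM in WT, against 11.9 and 16.3 in the Ins2-AKITA pair, with no overlap (1.17, standard error 0.33, limma, adjusted p = 0.90). Nop10, of the H/ACA core, had 9.70, 6.85 and 6.76 FPKM in WT, against 4.02 and 3.53 in the Ins2-AKITA pair, also with no overlap (-0.86, standard error 0.30, limma, adjusted p = 0.90). Pih1d1, of the complex that assembles the particles, had 22.4, 63.5 and 11.95 FPKM in WT, against 7.75 and 4.88 in the Ins2-AKITA pair (-1.91, standard error 0.66, limma, adjusted p = 0.90). The dyskerin gene Dkc1 had 15.7, 14.04 and 16.01 FPKM in WT, against 16.7 and 20.9 in the Ins2-AKITA pair, and the fibrillarin gene Fbl had 20.2, 10.51 and 12.4 in WT, against 18.96 and 7.503 in the Ins2-AKITA pair. Dkc1 was higher in both Ins2-AKITA mice than in any WT mouse and Fbl overlapped, with adjusted p of 0.90 and 0.96 (limma). The H/ACA core (Dkc1, Nop10, Nhp2 and Gar1) and the C/D core (Fbl, Nop56, Nop58 and Nhp2l1) each had differences in both directions.

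Host genes showed no call either. Of 48 listed host genes tested, 0 passed the adjusted threshold or an unadjusted p under 0.05 in limma. Among them 17 were lower and 31 higher, with a median difference of 0.10, where 8849 of all 16498 genes tested were lower and 7649 higher. Both Ins2-AKITA mice lay below all WT mice in 1 of the 48 and above them in 7, where 10.2% and 9.18% of all genes tested did. Snhg7 had the smallest p, with 8.71, 9.06 and 2.66 FPKM in WT, against 2.97 and 1.46 in the Ins2-AKITA pair, a difference of -1.18 (limma, adjusted p = 0.90). Ptcd3 followed with a difference of 0.46 (limma, adjusted p = 0.90). Of the 67 tested genes that contain a detected snoRNA on the same strand, 0 passed the adjusted threshold in limma. In 2 of the 67 both Ins2-AKITA mice lay below all WT mice and in 8 above them, beside the same shares of all genes. At an unadjusted p under 0.05 were 2, Csda (lower) and Slc25a3 (higher), where 2.84% and 1.49% of all genes tested were. The hosts of the 4 called genes had adjusted p between 0.90 and 0.93 (limma).

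Other small RNA genes were detected at differing lengths. Of 1544 genes for miRNAs 23 were above 0, of which 7 had at least 122 nt. Of 487 genes of the mixed class misc_RNA 117 of at least 122 nt and 1 shorter one were above 0. Of 1423 genes for spliceosomal RNAs 20 (1.41%) were above 0, and all 20 had at least 122 nt. Of 43 genes for scaRNAs, which guide the same modifications on spliceosomal RNAs in Cajal bodies, 14 were above 0 and 7 were above 0 in all mice. Among these Scarna13 had 2912, 3002 and 1280 FPKM in WT, against 1940 and 1350 in the Ins2-AKITA pair. Again WT replicate 3 was the lowest mouse and the groups overlapped.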

How the data were processed

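Brain microvascular RNA of 5 mice (3 WT, 2 Ins2-AKITA) was sequenced after depletion of ribosomal RNA, with a stranded total RNA kit. The authors mapped reads to NCBIM37 with TopHat2 2.0.4, removed duplicates with Picard 1.92 and tested with Cufflinks 2.2.1; the program for single mice is not given in the sources used here. They deposited FPKM per Ensembl identifier and mouse. Removal of duplicates limits the fragments that a short gene can keep, and the deposited values rise steeply as a gene nears the length of a fragment.

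Symbols, exons and hosts came from GENCODE vM1 on NCBIM37, which held all but 785 of the identifiers. The test was limma 3.58.1 (R 4.3.3), run on the 16498 genes with a mean FPKM of at least 1, on log2(FPKM + 1) with a variance trend, genotype as the only factor, two-sided, and Benjamini-Hochberg adjustment over all of them at 0.05. Exact permutation tests used the 10 splits of 3 and 2 mice. Each adjusted p is from limma. A fold change on this scale understates the change of low genes. Alternatives were the pseudocount, filters, TPM, 2 other scalings, a constant prior, a replicate block, summed symbols and each mouse left out.

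The FPKM of 1 fragment per length and mouse was fitted to low values of genes with 1 transcript (Python 3.11.15, numpy 2.4.6, pandas 2.3.3, scipy 1.17.1); at 130 nt or more between 95.8% and 96.3% of values of 10 fragments or fewer were within 0.05 of whole numbers, and below 130 nt between 68.8% and 88.2%, so none is given there. Minimums of 5 and 20 fragments were applied after rounding to whole numbers. Floors of 3 fragments cover counting error only. Both fits were tested on simulated data.

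Genes named are those called, the 8 with the highest FPKM per class, the 4 highest and 4 lowest differences per class among those above 0 in all mice, the fixed groups, those nearest the minimum, the snoRNP and host genes with the smallest p, and hosts of called genes; Snora23, Scarna13 and genes named for their host, copies or coverage were chosen after their values were seen. Some host genes that the rule names are not reported here. The snoRNA genes and lists were chosen with earlier results of these data known.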

Additional observations from a re-analysis of the deposited data

How the results depend on the processing

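The count of 4 called snoRNA genes was the same with quantile normalization, median-ratio scaling, a pseudocount of 0.1 or a constant prior. A filter at 5 and no filter at all left it unchanged too, and each setting called the same 4 genes. Among all genes fitted, 7 were called in the first fit and in each of these settings but the constant prior (16) and no filter (5). TPM gave 31 calls among 93 snoRNA genes (22 lower and 9 higher), beside 85 among all 12151 genes fitted, and shifted the median of all genes to 1.25. Summing shared symbols gave 2 among 65, beside 4 among all 16286 genes fitted. After the data had been seen, 2 alternatives were added. Among the 24 snoRNA genes with at least 10 estimated fragments limma gave 0 calls. Of these 24, 5 were at an unadjusted p under 0.05, beside 723 of all 15022 genes fitted. On fragments per-million limma gave 0 calls among 87, of which 1 was at an unadjusted p under 0.05. Of all 16398 genes fitted there, 771 were. Both alternatives gave 0 calls among all genes fitted. Leaving out 1 mouse gave between 3 and 8 calls, 8 without Ins2-AKITA replicate 2 (20 among all 16617 genes fitted) and 7 without WT replicate 3 (16 among all 16581), and between 8 and 20 among all genes; without an Ins2-AKITA mouse the lone sample is assumed to vary like the WT mice. The replicate block gave 6 calls, 3 of them shared with the 4, beside 8 among all 16498 genes. The labels do not say that numbers pair mice, deviations of equally numbered mice correlated at 0.055 and -0.021, and with 2 Ins2-AKITA mice these deviations are mirror images, so the pairing could not be checked. The listed snoRNP and host genes had 0 calls in every setting.

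The median difference of H/ACA genes was -0.32 with TPM, -0.19 with fragments per-million and between -2.90 and -0.46 with 1 mouse left out. At least 3 times the value of 1 fragment, with a tolerance of 0.05, was reached by 23, 30 and 15 snoRNA genes in the WT mice and by 22 and 12 in the Ins2-AKITA mice.

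None of the genes whose direction turned had been called. With TPM the differences became 0.95 for Snora30, 1.12 for SNORA63, 0.12 for SNORA79, 0.17 for SNORA84, 0.80 for SNORA48 in Eif4a1, 1.65 for Snord15b, 0.68 for Snord123, 1.07 for Snora73a, 1.32 for SNORA73 in Rpsa and 1.28 for Snora73b, against that shift of all genes. With quantile normalization they became 0.58 for Snora30, 0.52 for SNORA63, 0.78 for Snord15b and 0.027 for Snord123. With fragments per-million they became -0.19 for Snora68, 0.058 for Snord15b and -0.064 for SNORD94. With the replicate block they became -1.45 for Snora68, -0.46 for SNORA48 in Nap1l1, -0.56 for SNORD94, -0.34 for Snord17 and 0.036 for Snord123.

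With 1 mouse left out the range was -0.16 to 1.58 for Snora7a, -9.75 to 3.45 for Snord22, -0.34 to 0.42 for Snord17, -18.43 to 0.85 for SNORA26 in Ctage5, -15.06 to 0.65 for SNORA54, -1.67 to 0.10 for Snora30, -1.82 to 0.59 for SNORA63, -0.34 to 0.080 for Snord15b, -3.65 to 6.18 for SNORD94, -6.18 to 2.10 for Snord15a, -0.80 to 0.029 for SNORA73 in Rpsa, -1.45 to 5.54 for Snora68, -0.46 to 1.09 for SNORA48 in Nap1l1 and -0.19 to 0.036 for Snord123. The cause was not tested.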
